A study of Mus musculus with 12 samples.

Results

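Genes of megakaryocytes and platelets were compared between lineage-depleted bone marrow of E4bp4-/- mice (knockout) and of E4bp4+/+ mice (wild type). The group was a list of 41 symbols, and each gene was read from the deposited table as the transcript cluster (the probe set of one transcribed locus) annotated to that gene alone, taking the one with the highest mean over the 12 arrays. Of these, 35 had such a transcript cluster and all 35 passed the filter on low values, out of 19937 genes in the table and 17807 past the filter. Gp1bb, the beta chain of glycoprotein Ib, shared its transcript cluster with Septin5 and was left out. Gp1ba, Gp6, Selp, Serpine2 and Ptgs1 were not analysed here.

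E4bp4, also called Nfil3, is a basic leucine zipper transcription factor. RNA came from 6 knockout and 6 wild type mice, with 1 GeneChip Mouse Gene 1.0 ST array each. Magnetic depletion of hind leg marrow had used antibodies to Ter119, GR1, CD11b, B220, CD2 and NK1.1. That cocktail holds no antibody to a megakaryocyte antigen. The sources used here do not give strain, age, sex or the part of the gene deleted, and describe the allele only as E4bp4-/-.

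Megakaryocytes are the large polyploid marrow cells that shed platelets. As they mature they load granules with clotting factors and chemokines and build a surface of adhesion receptors and receptors for thrombin, ADP and thromboxane. An integrin, the fibrinogen receptor, then links activated platelets to each other. Several of the genes are also used elsewhere: endothelium makes von Willebrand factor, and monocytes use pleckstrin and thromboxane synthase. In bulk RNA, fewer cells of a type and less RNA per cell cannot be told apart.

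Promoter windows of the genes are shown here because most members were higher in the same samples. RefSeq windows of 300 bases (GRCm38.p6, 250 before the transcript start and 50 after it) were found for 33 of the 41 genes, in 35 windows. The E4bp4 site TTACGTAA, which reads the same on both strands, was in 0 of the 35 windows and in 0.119% of all 32851 windows. A variant, TTATGTAA or TTACATAA, was in 0 of the 35 and in 0.938% of all. AGATAA or TTATCT, a site of GATA factors such as the megakaryocyte and erythroid factor GATA1, was in 6 windows of the members (17.1%) and in 11.2% of all. CAGGAAG or CTTCCTG, a site of ETS factors such as FLI1, was in 5 (14.3%) and in 13.3% of all. No match of one motif overlapped a match of another. A match is a string of letters, not a measured site, and its absence from these windows says nothing about sites elsewhere.

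Stretches around the GATA matches of the 5 genes that have one and were measured are printed 5′ to 3′ on the gene's strand, with the match in capitals. Those of Gp5 lay 93 and 77 bases before the start, that of F2rl2 95 before it and that of P2rx1 242 before it, while those of Clec1b and Pf4 lay at bases 38 and 37 after it.
Gp5, chr16:30310833-30310894, minus strand: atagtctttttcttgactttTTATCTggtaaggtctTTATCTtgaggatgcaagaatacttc
F2rl2, chr13:95696805-95696850, plus strand: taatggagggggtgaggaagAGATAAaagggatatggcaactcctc
Pf4, chr5:90772451-90772484, plus strand: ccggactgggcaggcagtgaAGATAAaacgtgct
Clec1b, chr6:129397314-129397346, plus strand: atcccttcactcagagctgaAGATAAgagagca
P2rx1, chr11:72998895-72998928, plus strand: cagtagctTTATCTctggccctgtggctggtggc

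Of the 2 members of lowest p, Kcnk6 and F5, the window of F5 is printed whole, together with that of Itga2b, the integrin chain that marks the lineage. Neither holds any of the 4 motifs, so both stand in lower case throughout.
F5, chr1:164151585-164151884, plus strand: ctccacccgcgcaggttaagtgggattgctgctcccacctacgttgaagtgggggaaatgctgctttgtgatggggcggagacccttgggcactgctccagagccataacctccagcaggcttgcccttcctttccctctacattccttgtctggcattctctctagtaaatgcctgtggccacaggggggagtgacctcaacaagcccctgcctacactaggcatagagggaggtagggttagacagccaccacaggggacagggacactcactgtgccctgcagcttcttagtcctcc
Itga2b, chr11:102469834-102470133, minus strand: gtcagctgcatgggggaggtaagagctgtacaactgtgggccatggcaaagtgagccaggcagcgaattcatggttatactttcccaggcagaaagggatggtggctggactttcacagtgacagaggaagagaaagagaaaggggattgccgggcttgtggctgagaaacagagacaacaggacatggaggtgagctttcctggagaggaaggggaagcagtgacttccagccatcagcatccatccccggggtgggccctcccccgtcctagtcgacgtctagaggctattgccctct

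Array facts that bear on these genes were as follows. Nfil3 itself averaged 6.49 ± 0.23 log2 in knockout and 7.18 ± 0.25 in wild type marrow (SD, n = 6 each), which fits the labels. The genotypes did not overlap, but the highest knockout value, 6.92, came close to the lowest wild type value, 6.94. All 35 measured members lay above the 20th percentile of every array (4.93 to 4.99), Itga2b, Pf4 and Gp9 of the lineage included. Knockout replicate 1 stood apart. Xist was at 6.08 there, against 12.10 to 12.65 on the other 11 arrays. Y-linked Uty was at 7.70 there, against at most 4.66 elsewhere. By these levels that array came from a male and the other 11 from females, which the labels do not state. The part of sex in the differences was not tested. The mean neutrophil and monocyte marker levels of knockout replicate 1 were also the highest of all arrays. The differences of many members are therefore also given without that array.

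Megakaryocyte and platelet genes were higher in the knockout as a group of values, but no single gene passed the adjusted threshold. Of the 35 genes, 34 averaged higher in the knockout, and the exception was Cd36. The median difference was 0.33 log2, against 0.02 over all genes tested, and 22 of the 35 differed by at least 0.25 log2 upward, as did 1.43% of all genes. A difference above 0 was seen for 58.8% of all genes. No member and no other gene (0%) reached a Benjamini-Hochberg adjusted p of 0.05 in limma, the linear model fit to all transcript clusters. The targeted gene, Nfil3, also missed it, at -0.68 ± 0.13 log2 (SE) with a limma adjusted p of 0.140. The lowest adjusted p of a member was 0.140, shared by F5 and Kcnk6. The list was made with earlier results of these data known, in which F5, Kcnk6, Itga2b and Itgb3 had been seen higher. So the members' counts and lowest p-values are a description, not independent support.

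At an unadjusted p under 0.05, limma had 23 of the 35 members higher in the knockout, against 9.47% of all genes, and 0 lower, against 5.72%. That count depended on single arrays. Leaving out wild type replicate 2 gave 13, as did leaving out knockout replicate 3 or 4. It was 14 when knockout replicate 6 was absent, and 15 in the absence of knockout replicate 5 or of wild type replicate 1 or 6. Without knockout replicate 1 it was 28, against 8.95% of all genes. Centring each array on its median gave 12, and moved the share of all genes with a difference above 0 from 58.8% to 41.4%. The share of all genes at this p is not given here for centring or for the other left-out arrays. Those counts are therefore not to be set beside 9.47%. The count of members higher in the knockout was 33 or 34 with any one array left out.

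For 4 members every knockout array lay above every wild type array, namely F5, Kcnk6, Tbxas1 and Plek, and for none did every knockout array lie below. Over all genes these shares were 0.775% and 0.73%. Of the 4, F5 and Kcnk6 had already been seen higher in these data when the list was made. Without knockout replicate 1 the count was 14, against 1.45% of all genes: Itga2b, Itgb3, Gp9, Clec1b, Treml1, Cd9, F2rl2, P2rx1, Vwf and Rab27b joined the other 4. Centring each array on its median left 2 of the 35, and the share of all genes is not given here for that scaling.

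**Figure D1:**
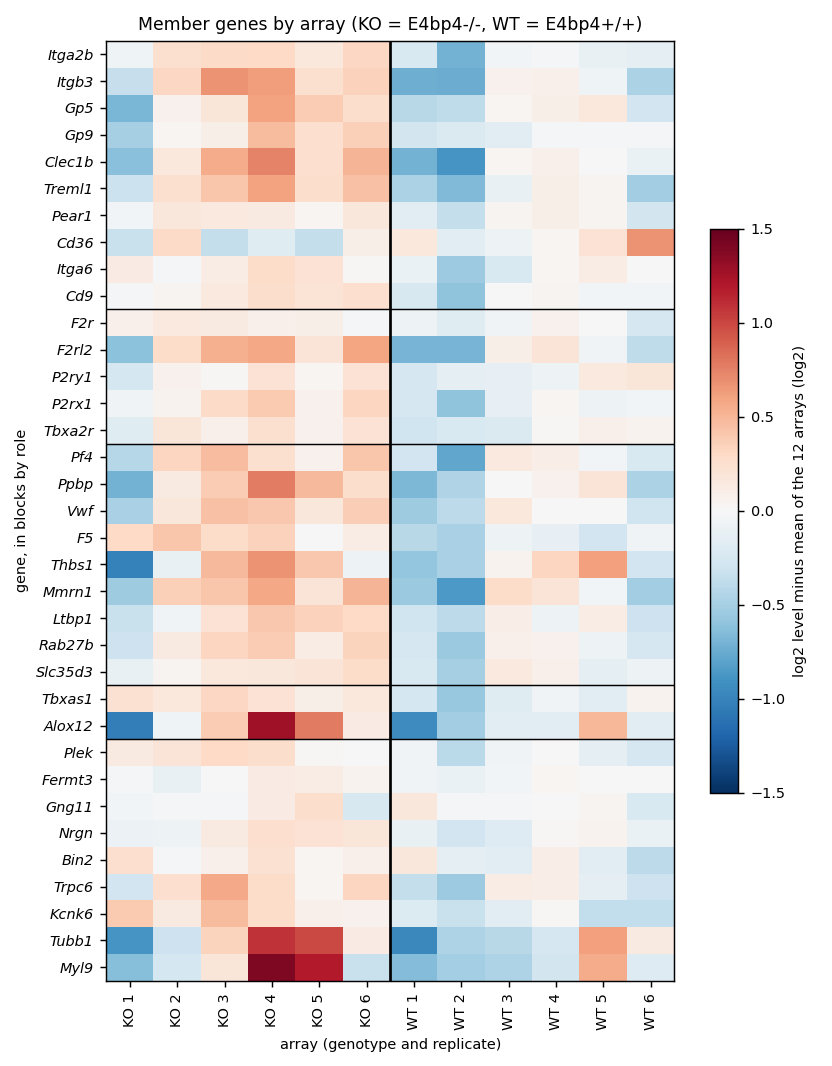
Log2 level of each of 35 genes on each of 12 arrays as the deviation from the gene's mean over all arrays (colour, log2), knockout arrays left of the line and wild type arrays right, genes in blocks by role. Knockout replicate 1 held the lowest knockout level of 25 genes and wild type replicate 2 the lowest wild type level of 20, while knockout replicate 4 held the highest knockout level of 18.

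The counts by role that follow stand beside 58.8% of all genes higher, and 9.47% higher at an unadjusted p under 0.05. Adhesion receptors and other surface proteins were taken first. Of 10 measured, 9 were higher in the knockout and 7 of these had an unadjusted p under 0.05, with a median difference of 0.28 log2. The 2 chains of the fibrinogen receptor, alpha IIb (Itga2b) and beta 3 (Itgb3), were among them. Itga2b ranged from 9.71 to 10.09 with a median of 10.04 log2 on knockout arrays, against 9.07 to 9.75 with a median of 9.64 on wild type arrays. Of the 6 knockout arrays 5 lay above the highest wild type array, and only replicate 1 fell among the wild type values. The difference was 0.41 ± 0.11 log2 (SE), or 1.33-fold, with an exact permutation p of 0.00649 and a limma adjusted p of 0.184.

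Itgb3 showed the largest difference among the members, 0.62 ± 0.20 log2 (1.54-fold). Its levels were 8.92 to 9.94 (median 9.59) on knockout arrays, against 8.53 to 9.35 (median 8.996) on wild type arrays. Again only knockout replicate 1 overlapped, and without it the difference was 0.75 log2. The exact permutation p was 0.0281 with all arrays and the limma adjusted p 0.219.

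Treml1, the TLT-1 receptor held in alpha granules, had 9.21 to 10.13 (median 9.86) on knockout arrays, against 8.86 to 9.61 (median 9.23) on wild type arrays. Knockout replicate 1 was once more the one array below the wild type maximum. The difference was 0.55 ± 0.17 log2 (limma adjusted p = 0.214), and 0.67 without that array. Clec1b, the podoplanin receptor CLEC-2, differed by 0.53 ± 0.24 log2, averaging 7.86 ± 0.49 on knockout arrays and 7.33 ± 0.42 on wild type arrays (SD). This too reached 0.71 without knockout replicate 1. For Itga2b, Itgb3, Treml1 and Clec1b alike, the lowest wild type value was that of replicate 2. Leaving out that wild type array lowered the median difference of the 35 members from 0.33 to 0.25 log2.

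Glycoproteins V and IX, which sit with glycoprotein Ib in the receptor for von Willebrand factor, were less clear. Gp5 averaged 9.25 ± 0.44 on knockout arrays and 8.98 ± 0.26 on wild type arrays, and Gp9 10.63 ± 0.35 and 10.40 ± 0.12 (SD, n = 6 each). For Gp9 only knockout replicate 1 lay below the wild type maximum, and for Gp5 replicates 1 and 2 did. Without knockout replicate 1 their differences were 0.43 and 0.36 log2, in place of 0.27 and 0.24, and that of Gp5 was 0.18 without knockout replicate 4. Among proteins less restricted to the lineage, the tetraspanin Cd9 differed by 0.30 ± 0.10, the laminin receptor chain Itga6 by 0.24 ± 0.10 (0.16 without wild type replicate 2) and the aggregation receptor Pear1 by 0.20 ± 0.08 log2 (SE).

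Cd36, a receptor for thrombospondin and lipids that is also found on monocytes, endothelium and erythroid cells, went the other way. It was at 6.56 to 7.22 (median 6.67) on knockout arrays, against 6.76 to 7.60 (median 7.02) on wild type arrays. None of the knockout arrays exceeded the highest wild type one, replicate 6. The difference of -0.28 ± 0.15 log2 had a limma adjusted p of 0.397 and an exact permutation p of 0.11, and was -0.18 without wild type replicate 6.

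Agonist receptors, by which platelets sense thrombin, nucleotides and thromboxane, were higher for 5 of 5 genes, 4 of them with an unadjusted p under 0.05. Their median difference was 0.20 log2. P2rx1, the ATP-gated channel, was at 9.04 to 9.49 (median 9.27) on knockout arrays, against 8.48 to 9.12 (median 8.99) on wild type arrays. As with the integrin chains, knockout replicate 1 alone overlapped the wild type. The difference of 0.36 ± 0.11 log2 had an exact permutation p of 0.00649 and a limma adjusted p of 0.214.

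The thrombin receptors PAR1 (F2r) and PAR3 (F2rl2) differed in how far their arrays spread. F2r, which in mice is not the thrombin receptor of platelets, was tight, at 8.70 to 8.88 (median 8.82) in the knockout against 8.48 to 8.80 (median 8.68) in the wild type. F2rl2, which in mouse platelets helps thrombin act on PAR4, was at 9.38 to 10.60 (median 10.41) in the knockout, against 9.31 to 10.20 (median 9.78) in the wild type. The differences were 0.16 ± 0.06 and 0.52 ± 0.22 log2, with limma adjusted p-values of 0.237 and 0.315. Knockout replicate 1 held the lowest knockout value of F2rl2 but not of F2r, and without it the differences were 0.17 and 0.69.

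The thromboxane receptor Tbxa2r averaged 7.72 ± 0.16 on knockout arrays and 7.52 ± 0.17 on wild type arrays. The ADP receptor P2ry1 had the smallest difference of the 5, 0.09 ± 0.09 log2, with 8.56 ± 0.18 on knockout arrays and 8.47 ± 0.17 on wild type arrays, within the spread of either genotype. It was 0.15 without knockout replicate 1 and 0.05 or 0.06 without wild type replicate 1 or knockout replicate 4 or 6.

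**Figure D2:**
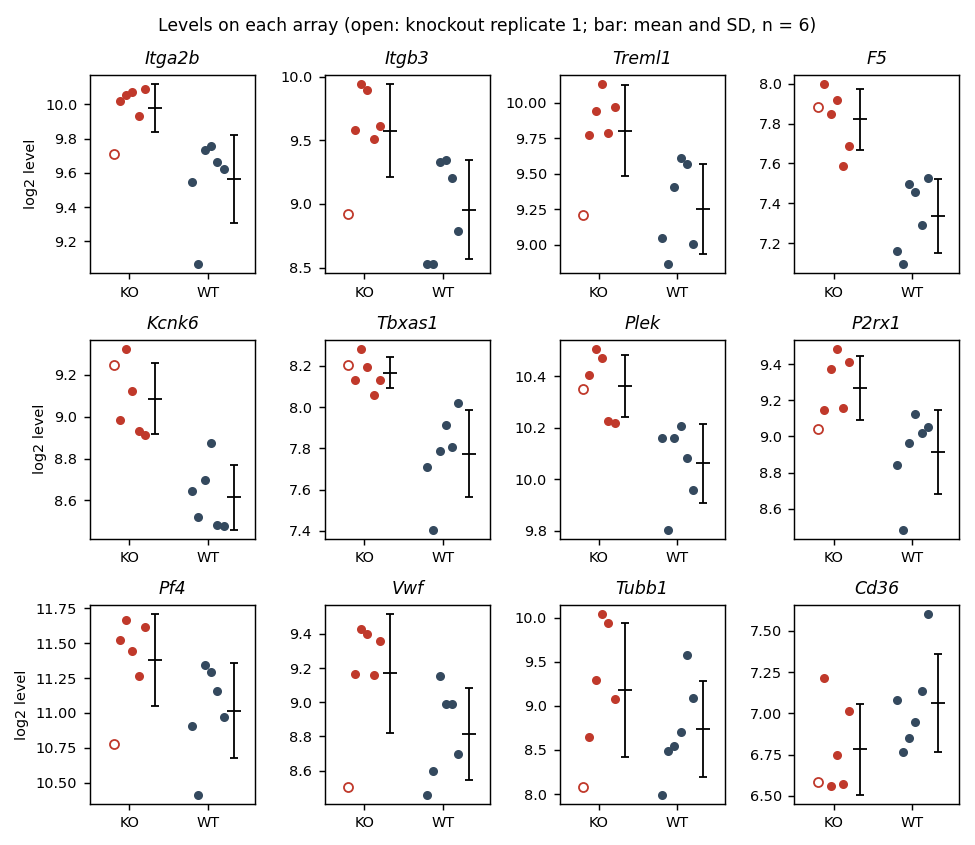
Log2 levels of 12 members on each array (points, knockout left, wild type right, replicates 1 to 6 from left to right), with mean and SD (bars, n = 6). For F5, Kcnk6, Tbxas1 and Plek the genotypes do not overlap, while for Itga2b, Itgb3, Treml1, P2rx1 and Vwf the open point, knockout replicate 1, alone lies among the wild type values.

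Granule contents and the genes that build granules were higher for 9 of 9 measured, 6 of them with an unadjusted p under 0.05, and had a median difference of 0.35 log2. F5, coagulation factor V, which mouse megakaryocytes make and store, was at 7.59 to 8.001 (median 7.87) on knockout arrays, against 7.09 to 7.53 (median 7.37) on wild type arrays. The genotypes did not overlap. The difference was 0.48 ± 0.09 log2 (1.40-fold) and 0.47 without knockout replicate 1. The exact permutation p of 0.00216 is the smallest that regrouping 6 and 6 arrays can give, and the limma adjusted p was 0.140.

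The chemokines and von Willebrand factor overlapped between genotypes. Pf4, platelet factor 4, was at 10.78 to 11.66 (median 11.48) in the knockout, against 10.41 to 11.35 (median 11.07) in the wild type. The lowest Pf4 values of the 2 genotypes were knockout replicate 1 and wild type replicate 2. Ppbp, the precursor of platelet basic protein and the neighbour of Pf4 on its chromosome, averaged 12.65 ± 0.51 on knockout arrays and 12.21 ± 0.36 on wild type arrays (SD). Vwf was at 8.50 to 9.43 (median 9.26) in the knockout, against 8.46 to 9.16 (median 8.84) in the wild type. Limma gave adjusted p-values of 0.354 for Pf4, 0.384 for Ppbp and 0.336 for Vwf. Their differences were 0.37 ± 0.18, 0.44 ± 0.23 and 0.35 ± 0.16 log2, and 0.49, 0.63 and 0.49 without knockout replicate 1.

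Among other cargo, Mmrn1, multimerin 1, which carries factor V in alpha granules, differed by 0.51 ± 0.23 log2 and Ltbp1, which binds latent TGF-beta, by 0.29 ± 0.13. Without knockout replicate 1 these differences were 0.67 and 0.39. Thbs1, thrombospondin 1, differed by 0.12 ± 0.28, with an SD of 0.61 among knockout arrays and 0.47 among wild type arrays. With 1 array left out its difference ran from 0.00093 (knockout replicate 4) to 0.34 (knockout replicate 1). It was 0.04 and 0.05 without knockout replicates 3 and 5, and 0.02, 0.04, 0.20, 0.26 and 0.08 without wild type replicates 1, 2, 4, 5 and 6. Of 2 genes of dense granules, Rab27b, a GTPase of granule traffic, was at 7.44 to 8.12 (median 7.97) in the knockout, against 7.19 to 7.82 (median 7.58) in the wild type. The other, Slc35d3, which mice need for dense granules, was at 7.49 to 7.87 (median 7.76) in the knockout, against 7.10 to 7.75 (median 7.49) in the wild type. Rab27b overlapped through knockout replicate 1 alone, while Slc35d3 had 4 knockout arrays above the wild type maximum. Their differences were 0.33 ± 0.13 and 0.24 ± 0.10 log2, with limma adjusted p-values of 0.288 and 0.305.

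Both measured enzymes of lipid mediators were higher. Tbxas1, thromboxane synthase, was at 8.06 to 8.28 (median 8.16) on knockout arrays, against 7.41 to 8.02 (median 7.80) on wild type arrays. Its knockout arrays were close together, and the lowest, at 8.06, lay just above the highest wild type array, at 8.02. The difference was 0.39 ± 0.09 log2 (1.31-fold), with an exact permutation p of 0.00216, the smallest possible, and a limma adjusted p of 0.148. Alox12, platelet 12-lipoxygenase, was spread widely, at 7.09 to 9.39 (median 8.38) in the knockout against 7.18 to 8.61 (median 7.95) in the wild type. Its difference was 0.49 ± 0.34 log2 (limma adjusted p = 0.514), 0.74 without knockout replicate 1 and 0.28 without knockout replicate 4.

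Signalling proteins, channels and cytoskeletal genes were higher for 9 of 9, 5 of them with an unadjusted p under 0.05, with a median difference of 0.30 log2. Kcnk6, a potassium leak channel, had the lowest p of all members. It was at 8.91 to 9.32 (median 9.05) on knockout arrays, against 8.48 to 8.87 (median 8.58) on wild type arrays. These ranges did not overlap, and the difference was 0.47 ± 0.09 log2 (1.39-fold), with an exact permutation p of 0.00216 and a limma adjusted p of 0.140.

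Plek, pleckstrin, the main substrate of protein kinase C in platelets, was at 10.22 to 10.51 (median 10.38) on knockout arrays, against 9.81 to 10.21 (median 10.12) on wild type arrays. The 2 ranges came close but did not meet. The difference was 0.30 ± 0.08 log2, with an exact permutation p of 0.00216 and a limma adjusted p of 0.178. Nrgn, the calmodulin-binding protein neurogranin, was at 8.97 to 9.31 (median 9.22) in the knockout, against 8.78 to 9.12 (median 8.95) in the wild type. For Nrgn 4 knockout arrays lay above the wild type maximum, and the difference was 0.21 ± 0.08 log2 (limma adjusted p = 0.258).

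Trpc6, a cation channel, differed by 0.38 ± 0.15 log2 and Bin2, a membrane-curving BAR protein, by 0.21 ± 0.09. Fermt3, kindlin 3, which activates the fibrinogen receptor, differed by only 0.05 ± 0.05, at 11.33 ± 0.09 on knockout arrays and 11.28 ± 0.05 on wild type arrays (SD). Gng11, a G protein gamma subunit, differed by 0.02 ± 0.08, and its sign turned to -0.02 after quantile normalisation and to -0.03 after centring each array on its median.

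Tubb1, the beta tubulin of the platelet's marginal band, was at 8.08 to 10.04 (median 9.18) on knockout arrays, against 7.99 to 9.57 (median 8.63) on wild type arrays. Myl9, a myosin regulatory light chain, averaged 8.002 ± 0.85 on knockout arrays and 7.49 ± 0.43 on wild type arrays (SD). The differences of 0.45 ± 0.34 and 0.51 ± 0.35 log2 (SE) had limma adjusted p-values of 0.558 and 0.509. Without knockout replicate 1 they were 0.67 and 0.69. They were 0.27 and 0.28 without knockout replicate 4, 0.29 and 0.32 without knockout replicate 5, and for Tubb1 0.30 without wild type replicate 1. For Tubb1, Myl9 and Alox12 alike, the 3 highest of the 12 arrays were knockout replicates 4 and 5 and wild type replicate 5. Those arrays had Tubb1 at 10.04, 9.94 and 9.57, Myl9 at 9.14, 8.93 and 8.31, and Alox12 at 9.39, 8.90 and 8.61. This grouping of genes was chosen after their values were seen.

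**Figure D3:**
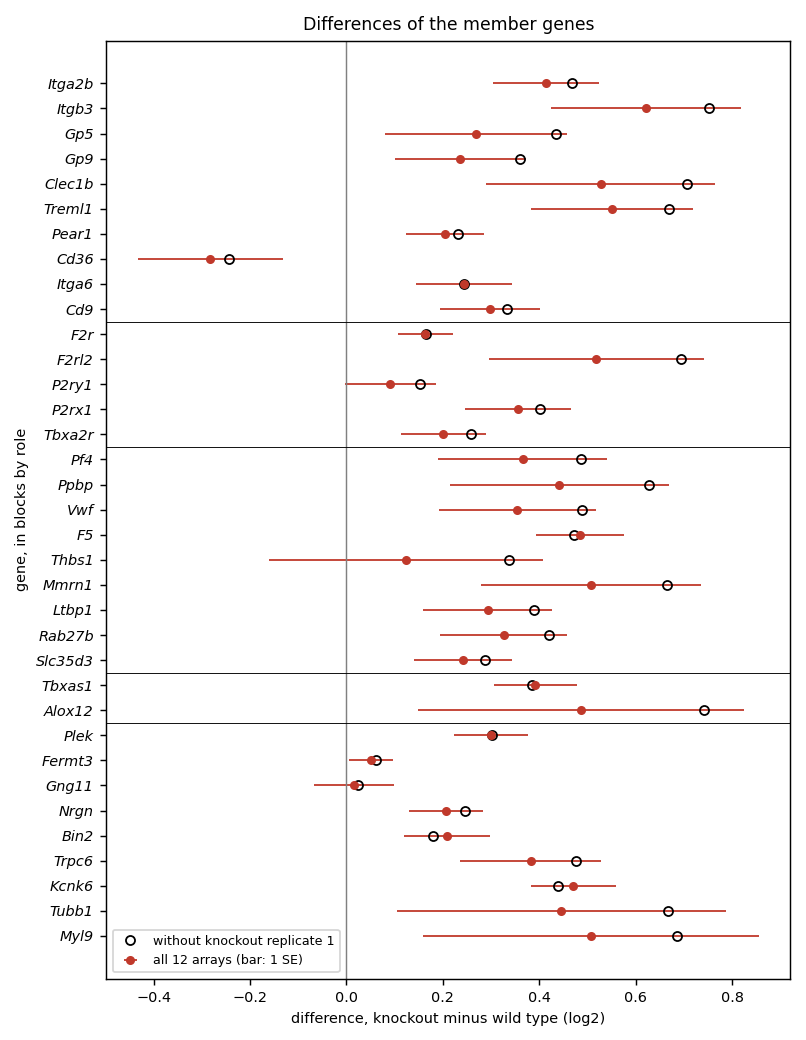
Difference, knockout minus wild type, of each of 35 members (log2), filled points with all 12 arrays and bars of 1 SE, open points without knockout replicate 1. All but Cd36 lie above 0, and the open point is farther from 0 than the filled one for 29 of the 35.

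Members known mainly in the megakaryocyte lineage differed from the rest in spread. The 10 measured (Itga2b, Gp5, Gp9, Pf4, Ppbp, Tubb1, Treml1, Clec1b, Slc35d3 and F2rl2) were all higher in the knockout, with a median difference of 0.43 log2, and the other 25 had a median of 0.30. Their median SD among knockout arrays was 0.39, against 0.17 for the other 25, and among wild type arrays 0.33, against 0.22. With all arrays, 5 of the 10 (50%) were higher at an unadjusted p under 0.05, against 9.47% of all genes. None of the 10 then separated the genotypes. The 4 genes that did separate them, F5, Kcnk6, Tbxas1 and Plek, all belong to the 25 that are known in other cells too. That contrast depended on knockout replicate 1. Without it, Itga2b, Gp9, Clec1b, Treml1 and F2rl2 of the 10 also separated the genotypes. So did Itgb3, Cd9, P2rx1, Vwf and Rab27b of the 25. The median differences were then 0.56 log2 for the 10 and 0.34 for the 25. No test of this contrast was run.

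Array by array, the median deviation of the 35 genes from their own means was -0.285, 0.135, 0.282, 0.298, 0.191 and 0.222 log2 for knockout replicates 1 to 6. For wild type replicates 1 to 6 it was -0.278, -0.486, -0.041, 0.026, 0.003 and -0.224. So 5 knockout arrays stood above all wild type arrays, and knockout replicate 1 lay beside wild type replicates 1 and 6. In wild type replicate 2 all 35 genes lay below their own means, and in knockout replicates 4 and 5 all but 1 lay above.

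Markers of other cells of the fraction were read on the same arrays, where 58.8% of all genes had a difference above 0. Erythroid markers were lower in the knockout for 11 of 12, with list means of 11.38 to 11.77 on knockout arrays against 11.62 to 11.93 on wild type arrays. Haematopoietic stem cell markers were higher for 9 of 9, at 7.73 to 7.88 in the knockout against 7.63 to 7.75 in the wild type. Endothelial markers were mixed, 10 of 14 higher, at 7.46 to 7.55 against 7.39 to 7.48. At an unadjusted p under 0.05, 4 endothelial markers were higher, of which Tek had no overlap of the genotypes, and 2 were lower. The 4 were 28.6% of that list, while over all genes 9.47% were higher and 5.72% lower at this p. Of the stem cell markers 4 were higher at this p (44.4%) and 0 lower. Of the 12 erythroid markers 0 were higher and 2 lower. The medians of the erythroid, stem cell and endothelial lists were -0.10, 0.12 and 0.07 log2, and -0.04, 0.04 and 0.06 without knockout replicate 1.

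Myeloid and stromal markers varied more between mice. Neutrophil markers were higher for 13 of 14 and monocyte and macrophage markers for 13 of 13, yet the medians of these lists were 0.06 and -0.02 log2 without knockout replicate 1. With it, their list means on knockout arrays were 8.07 to 10.38 and 7.30 to 8.82, against 8.08 to 9.07 and 7.24 to 7.88 on wild type arrays. Basophil and mast cell markers were higher for 9 of 9, with list means of 7.68 to 8.87 against 7.55 to 8.68, and their median of 0.24 log2 was 0.12 without knockout replicate 1. Stromal and bone cell markers were lower for 9 of 10, at 9.40 to 9.85 against 9.36 to 10.16. Knockout replicate 1, lowest among the knockout arrays in members, was highest of all arrays in neutrophil, monocyte, basophil, endothelial and stem cell markers and lowest in erythroid markers. The part of these lists in the members' differences was not tested.

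**Figure D4:**
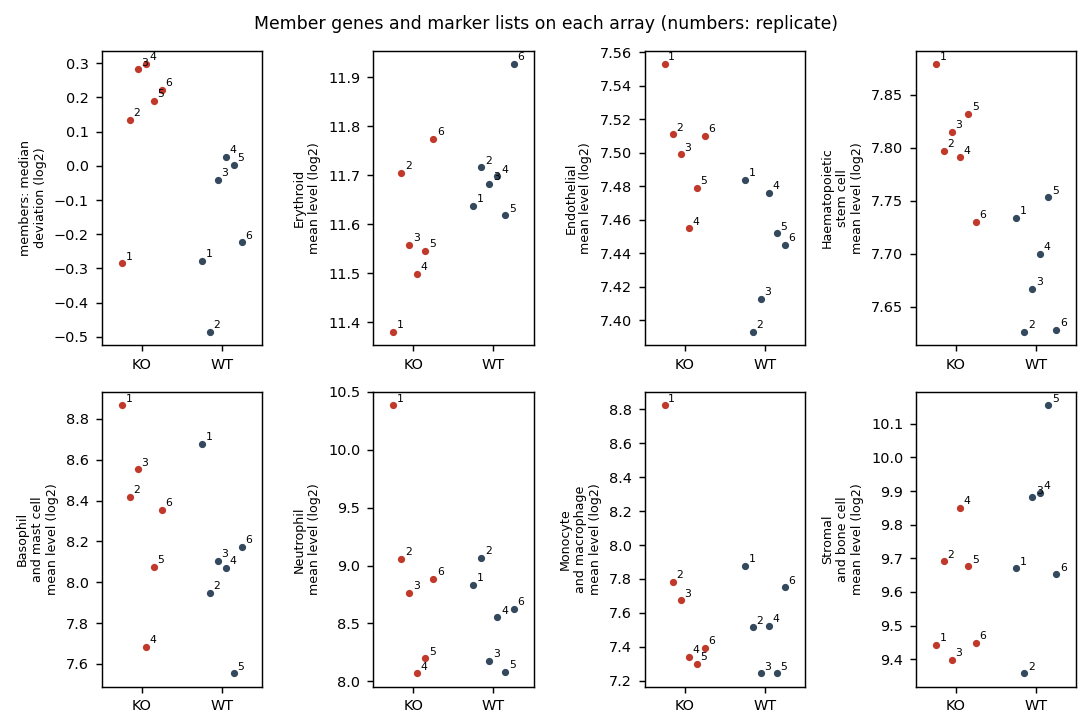
Median deviation of the 35 members and mean level of 7 marker lists on each array (log2, knockout left, wild type right, numbers give the replicate). In the members' panel 5 knockout arrays lie above all wild type arrays and knockout replicate 1, at -0.285, lies among them, while in the neutrophil panel that array is the highest at 10.38.

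Genes of the same pathways outside the 41 were compared for context, from 4 lists. Of 38 platelet activation signalling genes, 34 were higher and 4 lower in the knockout, 9 had an unadjusted p under 0.05, all higher, and the median difference was 0.15 log2. The share higher was 89.5%, against 58.8% of all genes, and the share with such a p was 23.7%, against 9.47%. F2rl3, the thrombin receptor PAR4 through which thrombin signals in mouse platelets, averaged 8.13 ± 0.19 on knockout arrays and 7.78 ± 0.12 on wild type arrays, with no overlap of the arrays. Its difference of 0.35 ± 0.09 log2 had a limma adjusted p of 0.171. Protein kinase C alpha (Prkca) differed by 0.37 ± 0.10, the adaptor Lat by 0.34 ± 0.10 and Itgb1, the integrin beta 1 chain, by 0.00 ± 0.06 log2. None of the 38 passed the adjusted threshold.

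Of 31 genes of granule biogenesis and secretion, 24 were higher (77.4%) and 7 lower, with a median difference of 0.03 log2, close to that of all genes. At an unadjusted p under 0.05, 3 were higher and 0 lower, a share of 9.68%, near the 9.47% of all genes. They were Pdgfb, a platelet growth factor chain (0.35 ± 0.09 log2), Nbeal2, which megakaryocytes need to form alpha granules (0.27 ± 0.10), and the protease inhibitor Timp3 (0.61 ± 0.24). Rab38, a GTPase of dense granules, was at 8.14 in both genotypes.

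The cytoskeleton list, 22 genes, had 14 higher and 8 lower and a median of 0.01 log2. The share higher, 63.6%, was near the 58.8% of all genes. At an unadjusted p under 0.05, 6 were higher and 1 lower, the GTPase Cdc42 (-0.13 ± 0.045 log2), and none of the 22 passed the adjusted threshold. The 6 were 27.3% of the list, while over all genes 9.47% were higher and 5.72% lower at this p. Tpm4, a tropomyosin, averaged 10.04 ± 0.13 on knockout arrays and 9.64 ± 0.13 on wild type arrays, and alpha-actinin 1 (Actn1) 9.03 ± 0.11 and 8.68 ± 0.16. These 2 genes and Myh9, the non-muscle myosin heavy chain of platelets (0.15 ± 0.04 log2), had all knockout arrays above all wild type arrays, as did 0.775% of all genes. Zyxin (Zyx) differed by 0.29 ± 0.07 log2, and Was, the gene of Wiskott-Aldrich syndrome, by 0.00 ± 0.09. Limma gave adjusted p-values of 0.140 for Tpm4, 0.148 for Actn1 and 0.160 for Zyx.

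Of 24 genes of megakaryocyte transcription and thrombopoietin signalling, 19 were higher and 5 lower, and the median was 0.08 log2. The share higher was 79.2%, against 58.8% of all genes. At an unadjusted p under 0.05, 4 were higher and 0 lower, a share of 16.7% higher, against 9.47% of all genes. Gata2, a factor of stem cells and early megakaryocytes, differed by 0.17 ± 0.05, the ubiquitin ligase Cbl by 0.24 ± 0.08 and Meis1 by 0.24 ± 0.10 log2. Stat5b, a signal transducer of the thrombopoietin receptor, differed by 0.00 ± 0.04. Without knockout replicate 1 the medians of the signalling, granule, cytoskeleton and transcription lists were 0.09, 0.04, 0.003 and 0.05 log2, while that of the 35 members was 0.40.

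**Figure D5:**
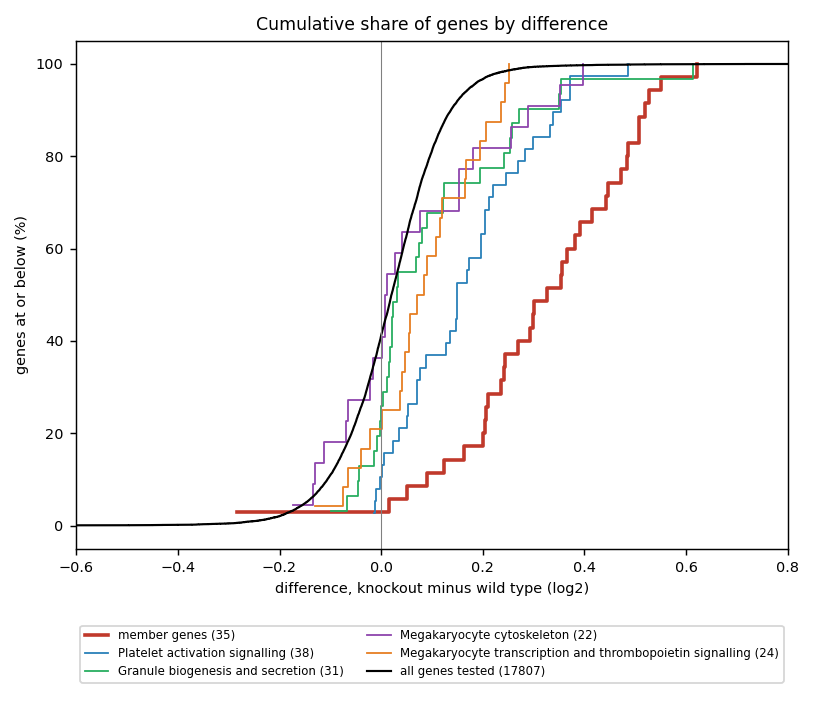
Cumulative share of genes (%) by difference, knockout minus wild type (log2), for the 35 members, 4 lists of related genes and all 17807 genes tested. The members' curve lies to the right of the others over most of its range, with a median of 0.33 against 0.02 for all genes, of which those past the ends of the axis are not drawn.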

How the data were processed

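The deposited values are log2 levels per transcript cluster. Per the series design text the authors normalised them with the RMA16 algorithm in GeneSpring GX version 11. That the scale is log2 was read from the values (3.18 to 14.33). The array medians of the deposited values were not equal, at 6.54 to 6.62 on knockout arrays and 6.50 to 6.57 on wild type arrays. Genes were named from the platform annotation: 21640 of 34760 transcript clusters named 1 gene, 1321 several and 11799 none. The filter asked for the 20th percentile on at least 1 array and left 29541.

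Differences, knockout minus wild type, were estimated by lmFit and eBayes of limma 3.58.1 (R 4.3.3), with no covariate, over all kept transcript clusters, with Benjamini-Hochberg adjustment and a threshold of 0.05. For single genes, a two-sided exact permutation test regrouped the 12 values in every way. The limma step was tested on simulated data. Sample number, 6 per genotype, limits the precision.

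Named in full were the 3 members of lowest p per role, Itga2b, Itgb3, Pf4, Vwf and Tubb1, and, from each related list, the 3 genes of lowest p and the 1 of highest. Cd36 was added after its values were seen, as were the printing of Itga2b's window and of the GATA stretches. The members and lists were chosen with earlier results of these data known, in which F5, Kcnk6, Itga2b and Itgb3 had already been seen higher. The labels do not say whether the replicate numbers pair the samples, and the main fit did not use them. Alternatives were no filter, a 50th percentile filter, 2 scalings, an intensity trend, array weights, the replicate number as a block, averaging a gene's transcript clusters, and leaving out arrays.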

Additional observations from a re-analysis of the deposited data

Results flagged for a closer look

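Within each genotype, the highest and lowest array were checked for a gap to the next one wider than 0.625 of the range. This held for 5 of the 72 sets examined, and about 3.6 would do so by chance. Of the 5, 4 were in knockout replicate 1. F2rl2 was at 9.38 there and at 10.20 on the nearest knockout array, Vwf at 8.50 and 9.16, and Mmrn1 at 7.79 and 8.52. The median deviation of the members was -0.285 log2 there and 0.135 on the nearest knockout array. The other was Itga2b in wild type replicate 2, at 9.07, with the nearest wild type array at 9.54.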

How the results depend on the processing

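Over 21 alternatives, 0 members passed the adjusted threshold, 33 or 34 members were higher in the knockout (33 of 34 with the 50th percentile filter), and the median difference kept its sign. With 1 array left out at a time that median ran from 0.25 (without wild type replicate 2) to 0.40 log2 (without knockout replicate 1). Members with an unadjusted p under 0.05 then numbered 13 to 28, members whose genotypes did not overlap 4 to 14, and transcript clusters past the adjusted threshold 0 to 4. Without either array numbered 1, 14 members did not overlap. Array weights gave 5 transcript clusters past the adjusted threshold, none of them a member. Centring each array on its median gave 12 members with an unadjusted p under 0.05 and 2 without overlap, and moved the median of all genes to -0.02 log2, while the share of genes higher was 41.4%, against 58.8% with the deposited scaling and 55.1% after quantile normalisation. Gng11 changed sign, to -0.02515 with centring and -0.01636 with quantile normalisation, and ran from -0.03639 to 0.06531 with 1 array left out (knockout replicates 5 and 6). The cause was not tested. With the replicate number as a block, 29 members had an unadjusted p under 0.05 and 0 passed the adjusted threshold. The SE of Itgb3 was then 0.098, against 0.197 in the main fit, and that of F5 0.099, against 0.092. Correlations of same-numbered arrays ran from -0.033 to 0.462, highest for the arrays numbered 1. Whether the numbers mark pairs or a shared batch is not stated, and the main fit did not use them.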
